A study of Mus musculus with 2 samples.

Results

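Of 18177 autosomal regions measured in mouse hypothalamic DNA, 253 differed between mice raised in small litters and control mice past a fixed fold threshold, 0.32 on the log2 scale, with the same sign on both arrays of the study. They are called concordant regions here. The fragment signal was lower in the small-litter group in 216 of them and higher in 37. The regions were chosen by these same ratios, so the ratios below describe them and carry no test. For 2 arrays the smallest two-sided p of an exact sign-flip test is 0.5.

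Both groups were female mice of the FVB/NJ strain at postnatal day 180. In the small-litter group (SL) the litter was cut to 4 pups, which gives each pup more milk and models overnutrition in early postnatal life, and the control group (C) grew up in litters of 9. DNA of 5 hypothalami was combined into a pool, and each group had 2 pools, that is 10 hypothalami. Each array carried SL and C DNA together: array 1 had SL in Cy5 and C in Cy3, and array 2 had SL in Cy3 and C in Cy5. The labels do not say which pool lay on which array. The arrays may have repeated 1 pair of pools, in which case their spread is only technical. Whole hypothalamus holds neurons, glia and vessel cells, so a changed mix of cells and a changed methylation within cells cannot be told apart.

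DNA methylation in mammals is found mostly at CpG dinucleotides, and it helps to keep gene regulation stable through cell division and age. CpG-rich stretches, many of them at promoters, are mostly free of methylation, and their methylation goes with silencing. The hypothalamus controls feeding, body temperature and energy use, and its circuits mature in the first weeks after birth, which is why litter size during suckling is used as a window for nutritional programming. The assay reads methylation at CCCGGG sites. SmaI cuts the unmethylated sites to blunt ends, XmaI then cuts the methylated ones to sticky ends, and adaptors ligate to the sticky ends, so a fragment flanked by methylated sites is amplified. A lower SL signal therefore corresponds to less of the amplified fragment in SL, and a higher one to more. The values are relative signals and give no methylation percentage.

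Both arrays lay on 1 slide, and most probes gave signal above background on each. Between 94.6% and 95.9% of genomic probes were well above background per channel, no genomic spot was saturated, and the median processed signal lay between 1073 and 1798. The arrays were not alike in spread: across all autosomal regions the SD of log2(SL/C) was 0.67 on array 1 and 0.33 on array 2. Across the 18177 regions the ratios of the arrays had a Pearson correlation of -0.42, and 37.9% of regions had the same sign on both. Regions share their array and its dyes, so this correlation is a description. The labelled tissue cannot be checked by marker genes in genomic DNA. Of 34 probes on chromosome Y, 41.2% to 47.1% were well above background per channel in these females. Being well above background thus does not by itself show that a signal is specific to its probe.

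The concordant regions are few beside the regions in which the arrays disagreed. Lower in SL on both arrays were 1.19% of the autosomal regions and higher 0.204%, together 1.39%. Past the threshold in opposite directions were 1599 regions (8.8%), of which 1289 were lower on array 1 and higher on array 2 (7.09%) and 310 the reverse (1.71%). After a dye exchange, a difference that follows the dye lies in this opposite set. Counted alone, array 1 had 5192 regions lower (28.6%) and 4687 higher (25.8%), and array 2 had 774 lower (4.26%) and 2588 higher (14.2%). Most regions past the threshold on array 1 thus did not pass it on array 2, and on array 2 regions lower in SL were the rarer kind. The labels give the dyes and with them the direction: had the dyes not been exchanged, the opposite set would be the one with equal signs. At 1.5-fold on both arrays, 38 regions were lower (0.209%), 4 higher (0.022%) and 412 opposite (2.27%). At 2-fold, 2 were lower (0.011%), 0 higher and 158 opposite (0.869%), and both of the lower regions rest on SL signals not well above background on array 2.

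**Figure D1:**
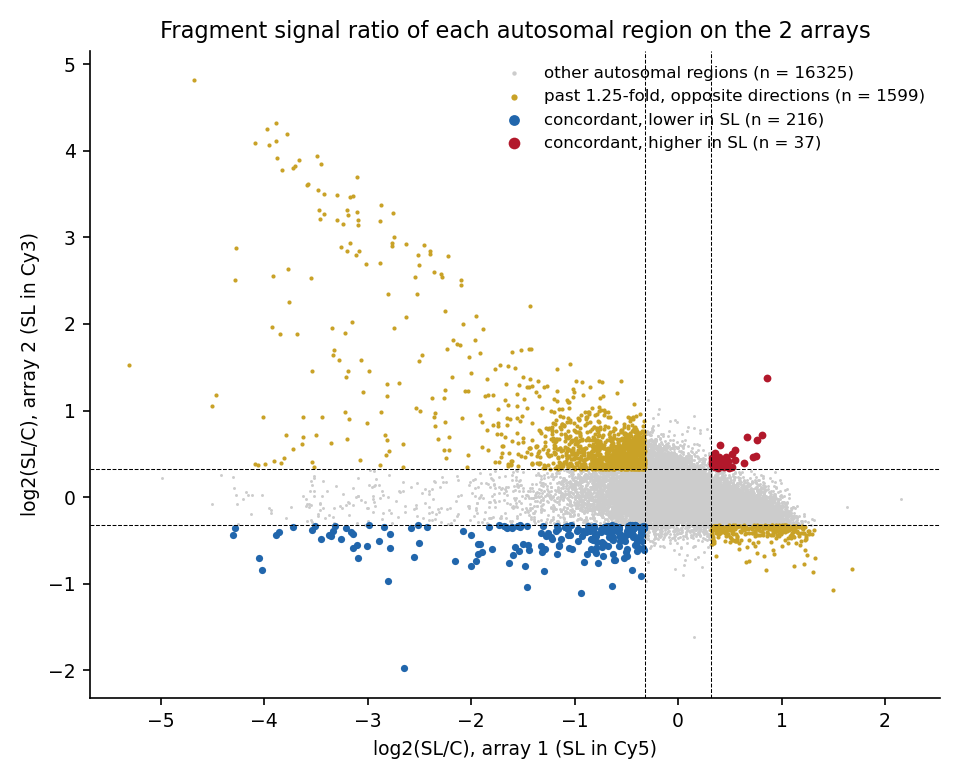
Each point is 1 autosomal region, with its mean log2(SL/C) on array 1 (horizontal) and on array 2 (vertical); dashed lines mark the threshold. The 216 concordant regions lower in SL stretch to -4.30 on array 1 but to -1.98 at most on array 2, the 37 higher ones form a small cluster, and the 1599 regions with opposite signs outnumber both.

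Among the 216 regions lower in SL, the size of the difference depended on the array. On array 1 log2(SL/C) ran from -4.30 to -0.33 with a median of -0.83, and on array 2 from -1.98 to -0.32 with a median of -0.43. The lowest value on array 2 belongs to a region at chr5:115821516-115821757 in which no SL probe was well above background there, so its size is uncertain. Array 1 lay farther from 0 in 186 of the 216 (86.1%) and in 72.3% of all autosomal regions. The rule used both ratios of the 216, so these shares are not like for like. The arrays lay within 0.2 of each other on the log2 scale in 69 regions (31.9%). Taking the array with the smaller difference, 178 regions were under 1.5-fold, 36 between 1.5-fold and 2-fold, and 2 beyond 2-fold. In both of the last, chr5:115821516-115821757 and chr12:54910635-54910900, no SL probe was well above background on array 2, so their ratios there do not establish 2-fold. The typical region of this kind was thus modestly lower on array 2 and lower by a wider margin on array 1.

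The wide margin on array 1 did not carry over to array 2. The 216 comprise 124 regions under 2-fold on array 1, 56 between 2-fold and 4-fold, and 36 at 4-fold or more. Their medians on array 1 were -0.59, -1.45 and -3.14, and on array 2 -0.41, -0.45 and -0.44. The rule admitted only regions at -0.32 or below on array 2, so the likeness of the medians there is partly set by the rule. Over all autosomal regions in the same classes of array 1, the medians on array 2 were 0.06, 0.115 and 0.173. In the last set of 36 the median signal on array 1 was 177 in SL and 1667 in C, whereas on array 2 it was 721 in SL and 960 in C. The median SL signal was thus far below that of C on array 1, where SL carried Cy5, and nearer to it on array 2, where SL carried Cy3. The part of the dye in this was not tested. Of all 337 autosomal regions lower by 4-fold or more on array 1, 36 (10.7%) were also lower past the threshold on array 2, 149 (44.2%) were higher there, and 152 lay within the threshold.

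The 8 lower regions that follow had the largest smaller difference among those with 3 or more probes, every probe lower on both arrays, and every probe well above background in all 4 channels. They show what the clearest lower regions look like at single probes. Positions are on mouse build mm8, and the signals are geometric means over the probes of a region. Signals are given before centring, whereas folds and log2 ratios are centred on each array's median. A fold can therefore differ somewhat from the quotient of the signals beside it. The gene annotation of that build was not used here, so the regions are named by position only.

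At chr4:34442427-34443046 the SL signal was 152 against 1033 in C on array 1 and 131 against 265 on array 2. After centring SL was 7-fold and 1.96-fold lower. The 4 probes, from left to right, read -2.61, -3.22, -2.90 and -2.51 on array 1 and -1.20, -0.79, -1.08 and -0.83 on array 2. No probe of this region came near 0 on either array, and its mean was -1.89 ± 1.30 (SD, n = 2 arrays). At chr4:47235429-47236090, a longer stretch on the same chromosome, the signal of SL was 113 on array 1 and 245 on array 2, and that of C 1792 and 451. Its probes lay between -5.38 and -3.07 on array 1 and between -0.95 and -0.75 on array 2, so the arrays did not overlap although both were below 0 throughout.

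Other regions of this set shared that gap. On chromosome 8, chr8:70806976-70807382 had SL at 82.8 and C at 687 on array 1, and SL at 189 and C at 316 on array 2. After centring SL was 8.52-fold and 1.62-fold lower. On chromosome 12, chr12:41624662-41624987 was dim on both arrays, with 82.3 against 469 and 47.9 against 79.7, and its 3 probes lay between -2.75 and -2.39, and between -0.80 and -0.58. At chr15:101926551-101927096 the 3 probes read -1.83, -2.25 and -1.93 on array 1 and -0.76, -0.91 and -0.72 on array 2. The middle probe was the lowest on both arrays. At chr5:87011712-87012318 the last of the 4 probes was the least changed on both, with -0.96 and -0.46, while the others lay between -2.46 and -1.92, and between -0.71 and -0.65.

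Brighter than those was chr12:59354998-59355630, with SL at 1248 and C at 4691 on array 1 and SL at 951 and C at 1628 on array 2. Its 4 probes were nearly equal, between -2.01 and -1.81 on array 1 and between -0.78 and -0.67 on array 2, so the difference between the arrays was far larger than that between probes.

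A single region of the 8 gave the same size on both arrays. At chr3:108327732-108328741 the SL signal was 2381 against 3837 in C on array 1, and 1128 against 1859 on array 2. After centring SL was 1.66-fold and 1.60-fold lower, with a mean log2 ratio of -0.70 ± 0.03 (SD, n = 2 arrays). The 4 probes span 1010 bases and read -0.78, -0.82, -0.78 and -0.53 on array 1 and -0.75, -0.68, -0.75 and -0.55 on array 2. The rightmost probe, the shortest at 45 bases, was the least changed on both arrays. The signal of this region was well clear of background in every channel.

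**Figure D2:**
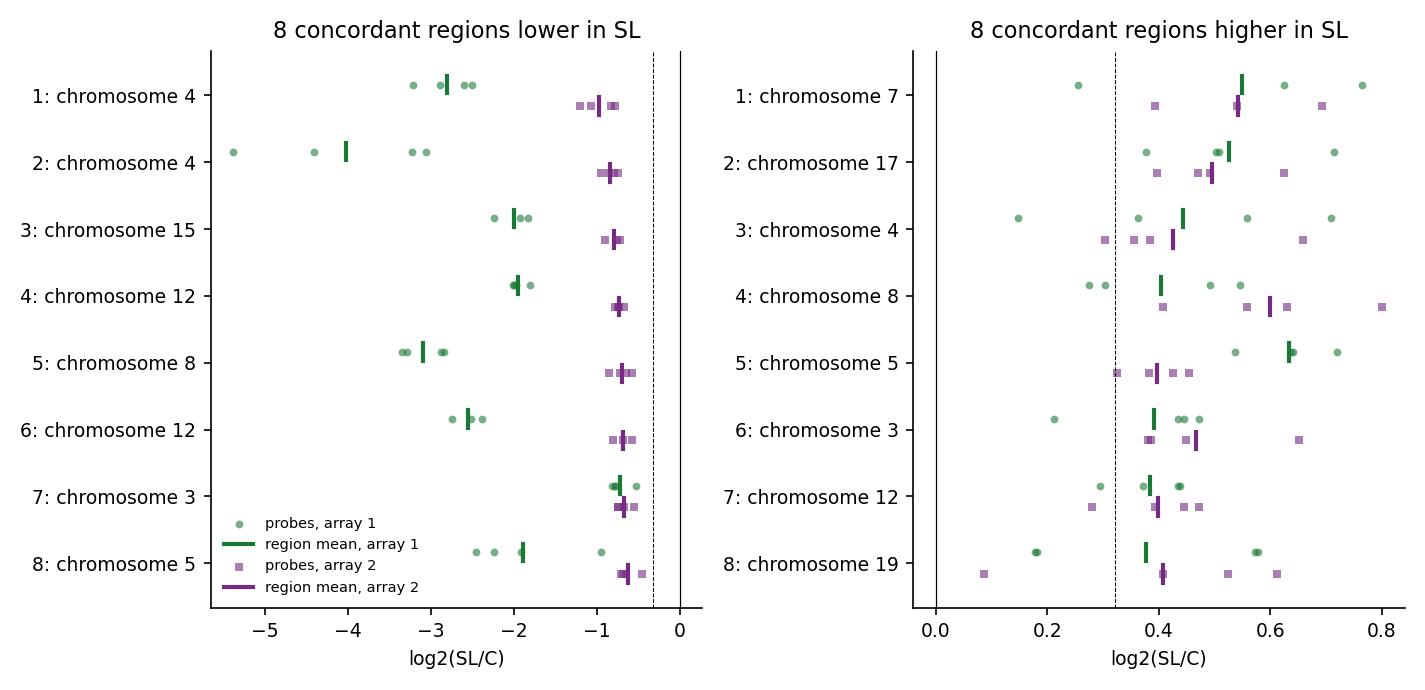
Each row is 1 concordant region, ranked by the smaller of its 2 array values among regions with 3 or more probes that agree and are well above background; dots are single probes, bars the region mean on each array, and the dashed line the fold threshold. In 7 of the 8 lower regions the probes of array 1 lie well to the left of those of array 2, in the lower chromosome 3 region the arrays overlap, and among the higher regions they overlap in all but that on chromosome 5.

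**Figure D3:**
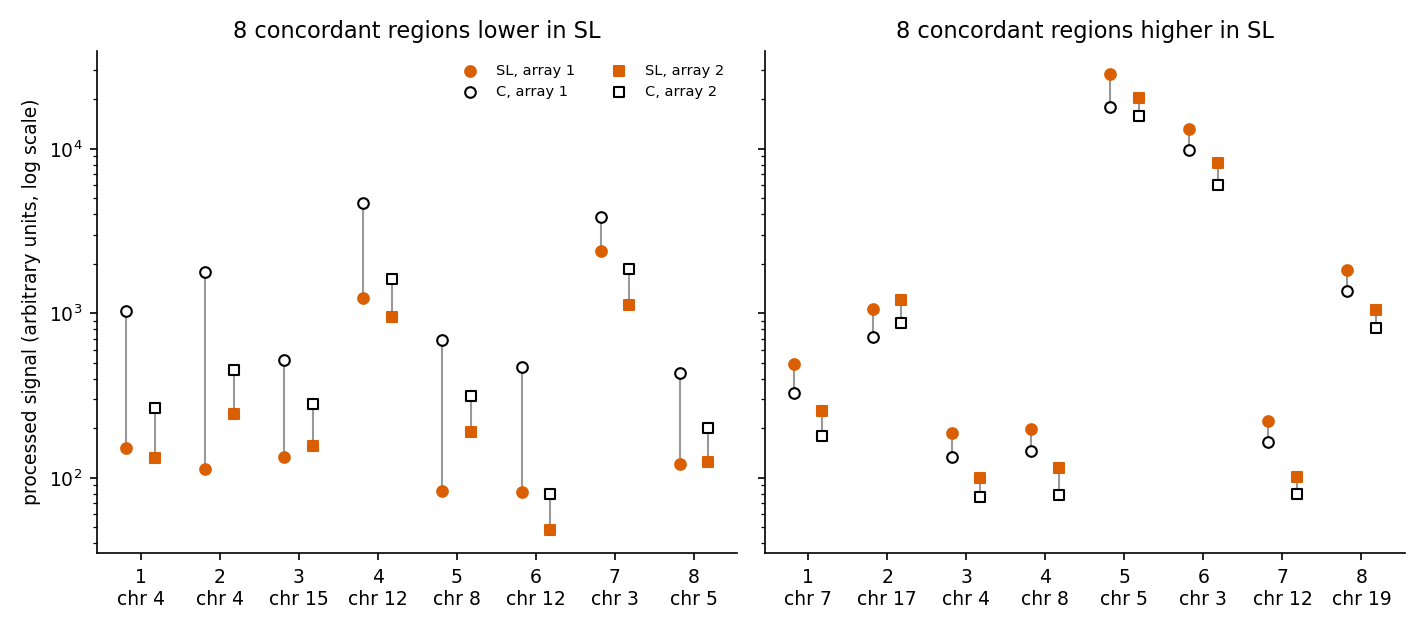
Processed signal of SL and C in the same 16 regions on a log scale, as geometric means over probes, with circles for array 1 and squares for array 2. In the lower regions C is above SL on both arrays, with the gap wider on array 1 in all but that on chromosome 3. The higher regions on chromosomes 5 and 3 are the brightest of all.

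Some lower regions were alike on both arrays but small. The smallest gaps between the arrays among regions with 3 or more probes were at chr1:186435887-186436159, with -0.33 on both, at chr2:151774290-151775040, with -0.51 on both, and at chr18:22942190-22942725, with -0.43 on both. In the chromosome 18 region the 4 probes lay between -0.50 and -0.30 on array 1 and between -0.48 and -0.38 on array 2, an even decrease over 536 bases. The chromosome 1 region had a mean of -0.20 with centring by probe length. The chromosome 2 region was less even: its first probe read -0.09 on array 1 and -0.41 on array 2, and the others -0.78 and -0.67 on array 1. With gaps of up to 1000 bp its mean of -0.51 became -0.28.

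The lower regions with the most probes, 7 each, were uneven along their length. At chr11:61223621-61224491 the first 3 probes read -1.50, -1.56 and -3.53 on array 1 and -0.21, -0.18 and -0.21 on array 2. The next 2 probes had it the other way round, with 0.13 and 0.08 on array 1 and -0.90 and -0.85 on array 2. The region mean passed the threshold on both arrays, -0.84 and -0.35, although no probe of it did so on both. At chr5:124890369-124892066 the first 4 probes lay between 0.02 and 0.26 on array 1, and the last 3 between -1.46 and -1.07. With regions joined only across gaps of up to 250 bp, this one gave a 2-probe region at 0.04 in place of -0.40. With the median of its probes it had -0.15, and the chromosome 11 region -0.07 in place of -0.59. At chr8:74606659-74608438 the ratio on array 1 went from -1.74 at the left end to 0.28 at the right, and on array 2 the 3 leftmost probes were the lowest too, from -0.56 to -0.42.

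Agreement of single probes was checked over all concordant regions. Every probe was below 0 on both arrays in 191 of the 216 lower regions (88.4%), and above 0 in 31 of the 37 higher ones (83.8%). Past the threshold on both arrays was every probe in 73 lower and 6 higher regions. At 6 lower and 2 higher regions no probe was past it on both arrays. Of the 701 probes in lower regions 482 were past the threshold on both arrays, and of the 121 in higher regions 63. For comparison, 1.74% of all 80853 probes in autosomal regions were lower in this way and 0.562% higher. The probe values make up the region value that chose the regions, so these shares describe how even the regions are and nothing more. Neighbouring probes overlapped in 15 lower and 6 higher regions and share sequence there.

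The 37 higher regions were smaller in size and more alike between arrays. On array 1 log2(SL/C) ran from 0.33 to 0.86 with a median of 0.43, and on array 2 from 0.34 to 1.38 with a median of 0.41. The arrays lay within 0.2 of each other in 33 of the 37 (89.2%), against 31.9% of the lower regions. Over all autosomal regions the share was 22.5%, but the rule takes only equal signs, so closer arrays are partly built into the choice. Array 1 was the farther from 0 in 20 of the 37. For 33 the smaller difference was under 1.5-fold, and for 4 between 1.5-fold and 2-fold. Over all autosomal regions array 1 reached from -5.31 to 2.16 and array 2 from -1.98 to 4.81, so the higher regions lay well inside the range of each array.

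The largest higher value on each array was at chr13:37521298-37521602, with 0.86 on array 1 and 1.38 on array 2. This region was outside the ranking, since only 3 of its 4 probes were well above background in C on array 1. Ranked as the lower ones were, the first higher region was chr7:25397237-25397955. SL read 492 against 328 in C on array 1 and 254 against 180 on array 2. After centring the region was 1.46-fold higher on both, with a mean of 0.55 ± 0.005 (SD, n = 2 arrays). Its 3 probes read 0.26, 0.63 and 0.77 on array 1 and 0.39, 0.69 and 0.54 on array 2, so probes differed more than arrays did.

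At chr17:12612563-12613160 SL was at 1057 and C at 714 on array 1, and at 1202 and 877 on array 2, a mean of 0.51 ± 0.02. All 4 probes are 45 bases long, and they lay between 0.38 and 0.72 on array 1 and between 0.40 and 0.63 on array 2. Each probe of this region was past the threshold on both arrays.

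Among these 8 higher regions the brightest were on chromosomes 5 and 3. At chr5:125266692-125267082 SL reached 28708 against 18011 in C on array 1 and 20270 against 15835 on array 2. After centring the region was 1.55-fold and 1.32-fold higher. Its probes were even within an array, between 0.54 and 0.72 and between 0.33 and 0.45, and the arrays did not overlap. At chr3:54846643-54847290 the signals were 13237 and 9822 on array 1 and 8163 and 6075 on array 2, and the probes lay between 0.21 and 0.47 and between 0.38 and 0.65. Both regions were in the brightest of 5 signal classes, with high signal in SL and C alike.

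Other higher regions were dimmer. At chr4:137037631-137038550 SL and C read 187 and 133 on array 1 and 99.95 and 76.5 on array 2. At chr8:96926128-96926518 they were 199 and 146 on array 1 and 115 and 78.3 on array 2, with probes between 0.28 and 0.55 on array 1 and between 0.41 and 0.80 on array 2. The regions chr12:70103253-70103573 and chr19:8731093-8731426 had mean ratios of 0.39 each. In the chromosome 19 region the 2 left probes were the higher on array 1, at 0.58 and 0.57, and the 2 right ones on array 2, at 0.61 and 0.53. The arrays thus disagreed on where within that region the difference lay.

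The closest match of the arrays among higher regions with 3 or more probes was at chr15:73011253-73011657, 0.43 on both, but its probes lay between -0.08 and 0.89 on array 1 and between 0.18 and 0.61 on array 2. At chr11:31269129-31269393, with 0.35 and 0.36, all probes lay between 0.21 and 0.44, but its mean of 0.36 became 0.24 with centring by probe length and 0.08 with gaps of up to 1000 bp, where it joined a region of 8 probes. No higher region held more than 4 probes. The first 3 of that size in chromosome order were chr1:34622830-34623088 (0.34 and 0.36, with a mean of 0.23 after centring by probe length), chr1:36389223-36389499 (0.33 and 0.45) and chr2:90690362-90691149 (0.33 and 0.42). The signal of the chromosome 2 region was 597 in SL on array 1 and 2207 on array 2, so brightness differed more between the arrays than between the groups.

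Lower and higher regions differed in the length of their probes, a property the choice did not use. Probes in the design are 45 to 60 bases long. Of the probes in lower regions 47.9% had 60 bases and 8.99% had 45, in higher regions 8.26% had 60 and 52.9% had 45, and over all autosomal regions 22.1% had 60 and 38.9% had 45. By the mean probe length of a region, lower regions made up 0.235% of the 5104 regions at 45 to 48 bases, 0.695% of the next class, 1.28% of the third and 2.75% of the 4255 regions over 56 bases. Higher regions went the other way, from 0.431% at the short end to 0.0705% at the long end. The median log2(SL/C) of all regions moved with probe length as well: on array 1 it was 0.09 at 45 to 48 bases and -0.42 over 56 bases, and on array 2 it was 0.14 and -0.01. The part of probe length in which regions were lower or higher was not tested beyond a centring by length: with ratios centred within each probe length, 134 of the 216 lower regions (62%) and 19 of the 37 higher ones (51.4%) still met the rule, and the counts were 155 and 38.

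Signal differed too. Across 5 equal classes of autosomal regions from dimmest to brightest, lower regions made up 1.95%, 1.62%, 1.68%, 0.413% and 0.275%, and higher regions 0.495%, 0.275%, 0.11%, 0.0275% and 0.11%. The dimmest class held 71 of the 216 lower regions (32.9%) and 18 of the 37 higher ones (48.6%), and the brightest 10 and 4. The median C signal on array 1 was 926 in lower regions and 301 in higher ones, against 2124 over all autosomal regions. The median ratio of all regions moved with signal, from -0.15 in the dimmest class to 0.31 in the brightest for array 1, and the other way for array 2, from 0.23 to -0.12 (log2). The part of signal in the choice of regions was not tested beyond a loess fit of ratio on signal, after which 172 of the 216 lower regions (79.6%) and 11 of the 37 higher ones (29.7%) still met the rule. With it the counts were 336 and 25, so many regions that met the rule after loess were not among the 253.

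Concordant regions were rarer among regions of many probes. Of the 3172 regions with 2 probes 2.14% were lower and 0.347% higher, of the 2809 with 3 probes 1.5% and 0.178%, of the 8240 with 4 probes 1.2% and 0.255%, and of the 3956 with 5 or more 0.177% and 0%. No region of 8 or more probes, of which there were 2328, met the rule in either direction. The regions lower on array 1 and higher on array 2 went the same way: their share was 11.6% at 2 probes and 2.6% at 5 or more. By mean probe length it climbed from 2.53% at 45 to 48 bases to 15.1% over 56 bases, and by signal it fell from 13.1% in the dimmest class to 3.63% in the brightest. These traits were thus shared by concordant lower regions and by regions lower on array 1 and higher on array 2. The regions of the reverse order differed. Their share was 0.303% in the dimmest class and 5.45% in the brightest, and 1.76% at 45 to 48 bases and 0.541% over 56 bases. By number of probes it was 1.67% at 2, 2.29% at 4 and 0.935% at 5 or more.

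**Figure D4:**
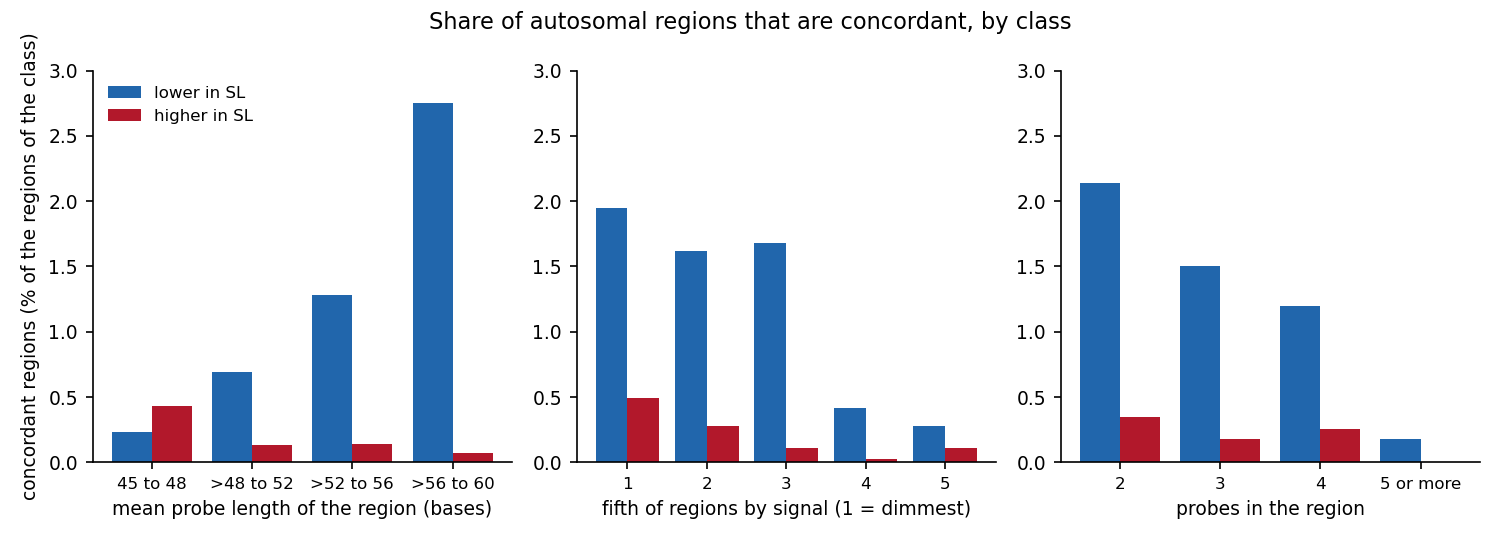
Bars give the percentage of autosomal regions that were concordant, lower (blue) or higher (red) in SL, by mean probe length in bases, by class of signal and by number of probes. The share of lower regions climbs from 0.235% to 2.75% with probe length while that of higher regions falls from 0.431% to 0.0705%. By signal, the lower share is smallest in the brightest class (0.275%). The higher share is smallest in the second brightest (0.0275%), with 0.11% in the brightest. Both shares are smallest in regions of 5 or more probes.

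Lower regions lay on all 19 autosomes and higher ones on 16. The share of lower regions ran from 0.659% on chromosome 14 (4 of 607 regions) to 1.73% on chromosome 18 (9 of 521), and chromosome 2 held the largest number, 25 of 1460 (1.71%). Higher regions were most numerous on chromosome 11, with 7 of 1577 (0.444%), and chromosomes 6, 9 and 10 held 0. The counts per chromosome are small, and no chromosome was tested against the others. On the slide the probes of lower regions were spread evenly, with 23.5% to 26.4% in each of 4 bands of rows and 23% to 27.8% in each of 4 bands of columns.

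Chromosome X was outside the rule. Of its 367 regions 12 (3.27%) were lower and 4 (1.09%) higher past the threshold on both arrays.

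Few lower regions stood next to each other. Within 10000 bases of another lower region were 6 of the 216, and within 50000 bases 12. No higher region lay within 50000 bases of another higher one. The closest pair was chr2:13265568-13266093 and chr2:13266536-13266914, with -4.05 and -2.79 on array 1 and -0.70 and -0.59 on array 2. In SL on array 1 none of their probes was well above background, with signals of 12.5 and 21.3 against 201 and 143 in C, so the size on array 1 is uncertain, and on array 2 SL read 49.96 and 36.6 against 83.4 and 56.6. Another pair on chromosome 4, chr4:132946396-132946963 and chr4:132947451-132947779, had -0.97 and -1.15 on array 1 and -0.36 and -0.56 on array 2. A further pair, chr4:15276953-15277177 and chr4:15277732-15277986, had -0.88 and -0.98, and -0.66 and -0.39. In SL on array 2 neither probe of the last region was well above background. The gap between the regions of these 3 pairs was 443 to 555 bases. Every probe of the chromosome 2 pair and of this last pair was below 0 on both arrays, while in the middle pair the leftmost probe read 0.19 on array 2 and the next 0.002 on array 1. With normexp, another background correction, the means of the chromosome 2 pair were -1.25 and -0.83 in place of -2.37 and -1.69, and those of the last pair -0.49 and -0.35 in place of -0.77 and -0.69. With gaps of up to 1000 bp the middle pair fell into 1 region of 12 probes at -0.39.

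At wider spacing, chr13:28891903-28892309 and chr13:28921299-28921550 had means of -0.46 and -0.49. The first became -0.18 with gaps of up to 1000 bp, and the second -0.31 with normexp. In the second of them 3 of 4 probes carried the difference, and the leftmost read 0.29 on array 1 and 0.12 on array 2. On chromosome 5, chr5:115776579-115777000 was 0.39 lower in the mean, with bright signals of 5539 in SL and 7238 in C on array 1. It lay 44516 bases from chr5:115821516-115821757, which had -2.65 and -1.98 but was dim, with SL at 28.5 against 173 in C on array 1 and at 13.6 against 55.1 on array 2. Its mean of -2.31 became -0.68 with no filter on dim probes (6 probes), -0.85 with gaps of up to 1000 bp (5 probes) and -1.07 with normexp. On array 2 neither probe of the latter was well above background in SL. A run of 3 lower regions on chromosome 2, singled out after the values were seen, spanned 119664 bases at chr2:115637547-115637947 (-3.16 and -0.40), chr2:115711249-115711515 (-0.42 and -0.32) and chr2:115756917-115757210 (-1.48 and -0.79). These were 3 of the 7 regions measured in that span.

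Neighbouring regions that did not meet the rule were read by other probes than the concordant regions. They are not free of the rule, since neighbours past the threshold with equal sign on both arrays were left out. Within 10000 bases of the lower regions lay 123 neighbours that did not meet the rule. Their medians were -0.13 on array 1 and -0.01 on array 2 (log2), against -0.03 and -0.002 over all 17924 regions filtered in the same way. Both arrays were below 0 in 30 of the 123 neighbours (24.4%, against 19.7% of the 17924). Within 2000 bases there were 60 neighbours with medians of -0.20 and 0.05, and 15 of them (25%) were below 0 on both arrays. Around the higher regions 30 neighbours had medians of 0.30 and -0.10, and 4 (13.3%, against 17.3%) were above 0 on both. Averaged over the arrays the medians were -0.07 ± 0.08 for neighbours of lower regions and 0.10 ± 0.28 for neighbours of higher ones (SD, n = 2 arrays), so neither was farther from 0 than the spread between the arrays.

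**Figure D5:**
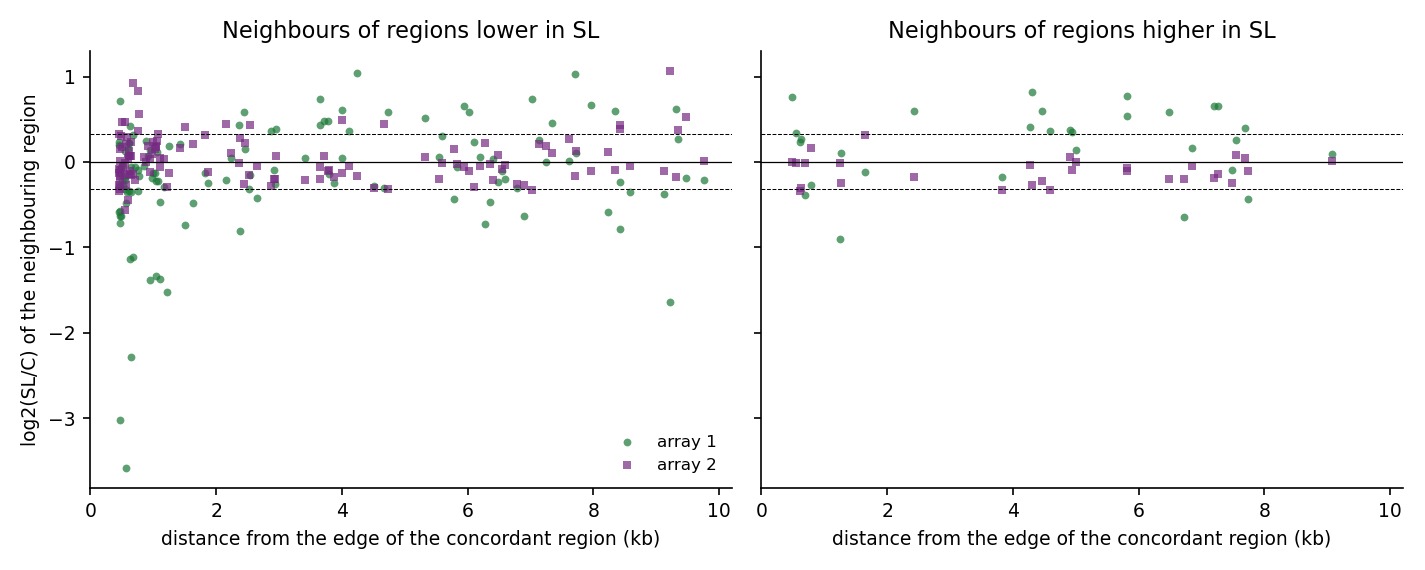
Log2(SL/C) of regions within 10 kb of a concordant region that did not meet the rule themselves, against the distance between the edges, on array 1 (circles) and array 2 (squares); dashed lines mark the fold threshold. Close to the lower regions some neighbours lie far below 0 on array 1, and on array 2 the median of all 123 is -0.01.

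The threshold cut through a continuum. The lower regions just inside it were chr2:164464546-164464960 (-0.42 and -0.32) and chr18:15456373-15456823 (-2.98 and -0.32), and just outside lay chr12:109317975-109318269 (-0.36 and -0.32) and chr18:36685798-36686655 (-0.63 and -0.32). The mean of the latter, -0.48, became -0.91 with gaps of up to 250 bp and -0.23 with normexp. On the higher side chr2:90690362-90691149 and chr13:74475174-74475663 (0.33 and 0.39) were just inside. Just outside were chr7:116125393-116125688 (0.32 and 0.38) and chr12:40956156-40957127 (0.32 and 0.33). This last region held 12 probes, more than any concordant region, all of 45 bases and all above 0 on both arrays, and its mean of 0.33 became 0.21 with centring by probe length.

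Dim signal limited a few regions. In 9 lower regions no probe was well above background in SL on 1 array or more, and in 2 of these on neither array. For those 2 the processed signals before centring were compared on each array with a floor for SL. Any SL probe below the lowest SL signal well above background (32.0 on array 1, 33.7 on array 2) was set to that signal. At chr17:93505566-93506210 SL was then 2.4-fold lower than C on array 1 and 1.32-fold lower on array 2. Its SL signal on array 1, 34.9, lay above the floor although no probe was well above background. The floor thus does not cap such signals, and these folds are not firm bounds. At chr12:54910635-54910900 SL was 1.92-fold lower on array 1 with the floor. On array 2 no such fold can be given for this region, since its C signal of 30.5, though well above background in both probes, was under the floor. All higher regions had probes well above background in both groups on both arrays, and in 184 lower (85.2%) and 34 higher regions (91.9%) every probe was so in all 4 channels, against 94.2% of all autosomal regions.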

How the data were processed

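Spot intensity in both channels came from the authors' run of Agilent Feature Extraction (version 9.1.3.1 per the submitters' processing notes, 10.5.1.1 per the file headers). Per the file headers, the processed intensity is background-subtracted and dye-normalised, and probes are placed on mouse build mm8. Each deposited file gives the authors' own log10 ratio, red over green, and their log10 value table equals that ratio with array 2 turned to within 0.005.

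Of 96645 spots per array 90535 were genomic; 44 with an outlier mark were left out. Probes well above background in 1 or more channels on each array were kept (86472). Their log2 ratio of processed signals, SL over C, was centred on each array's median. Probes whose starts lay within 500 bp of the next were joined into a region (22534 groups, 3987 of 1 probe left out), valued at the mean of its probes; concordant regions were at 1.25-fold or more with equal sign on both arrays. This gave 18547 regions, 18177 of them autosomal. The rule was run on simulated ratios with the same planted changes on both arrays and no dye or probe-length effect. That run checks only the working of the rule and cannot show how it behaves on arrays that disagree. No test was run, since the choice of regions used every ratio. The normexp and loess alternatives used limma 3.58.1 in R 4.3.3. Normexp took median spot signals, as the mean signals the plan named were not among the columns. Loess took the processed signals.

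The regions, lists and rules were chosen with earlier results of these data known. Regions are named in the text as follows, per direction: up to 8 by the smaller array difference among those with 3 or more agreeing probes above background in all channels, the 3 with most probes, the 3 with closest arrays, 2 on either side of the threshold, and the 5 closest pairs. Planned gene lists needed gene names on mm8 and were not used here.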

Additional observations from a re-analysis of the deposited data

How the results depend on the processing

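The limits include the 2 arrays, their unequal spread, their many opposite signs after the dye exchange, dim signal and shares that moved with probe length. Against 216 lower, 37 higher and 1599 opposite regions, the counts were 38, 4 and 412 at 1.5-fold, 413, 93 and 2424 at 1.2-fold, 106, 21 and 910 with at least 4 probes, and 416, 56 and 2407 once both arrays were brought to 1 spread. The lower count was 336 with loess, and the higher count 23 with normexp. With 1 array left out, 774 to 5192 regions were lower and 2588 to 4687 higher on the other. Under the other alternatives these counts stayed within 1.5 times, and the medians of neighbouring regions moved by less than the spread between arrays. That spread is wide: with loess the value around higher regions went from 0.102 to -0.001, within its spread of 0.283. Over the 15 alternatives that keep the fold and both arrays, 35 lower and 2 higher regions met the rule in all; those alternatives require up to 4 probes. For the named regions, 11 alternatives moved a mean by over 0.001: 371 values moved by less than the spread between arrays, 103 by more, and 1 reversed, chr5:124890369-124892066, at 0.04 with gaps of 250 bp. The spread of 2 arrays is itself uncertain, and leaving out an array cannot exceed it, so that was not counted here. Each region was held against its own spread, which is widest where the arrays disagree most. With normexp the chromosome 2 region starting at 13265568 went from -2.374 to -1.251, less than its spread of 2.37. With no filter on dim probes the chromosome 1 region starting at 186435887 counted as moved, from -0.334 to -0.327. The 371 and 103 thus do not measure how stable the means are. Leaving out saturated probes changed nothing, as there were none. For these changes, the cause was not tested. SL and C were hybridised together on each array, so each ratio already is a pair and no further pairing was made.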
